A study of Sus scrofa with 12 samples.

Results

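The miRNAs described here are miR-21, the most abundant miRNA of these ovaries, and the miRNAs best known from immune cells, which are miR-142, miR-146a, miR-146b, miR-150, miR-155, miR-181a, miR-181b and miR-223. They were chosen by their number in the mature miRNA table, with any arm of the hairpin, which gave 13 of the 457 listed mature miRNAs. The levels are in RPM, the reads of a miRNA scaled to a read total of its library and not to its length. Of the 13, 11 reached at least 1 RPM in at least 3 libraries and were tested. The left ovaries came from 6 sows of a commercial herd, taken 4 days after the sows' delivery number 4. Of these sows, 3 had small litters (SLS, 8.48 ± 0.53 piglets per litter, ovaries ZD2, ZD3 and ZD12) and 3 had large litters (LLS, 16.19 ± 0.43, from which ZD5, ZD7 and ZD8 came), where the methods name the SEM as the error of the results in general. Each ovary gave 1 small RNA library and 1 library of total RNA without ribosomal RNA, so that the p-values measure the spread between sows. No treatment or genotype separates the groups, and whole ovaries were used, in which fewer cells of a type and less RNA per cell cannot be told apart.

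A miRNA is cut from a hairpin, whose 5′ and 3′ sides give the 5p and the 3p arm, and one arm is usually loaded into an Argonaute protein and kept while the other is degraded. The loaded miRNA pairs with target mRNAs mainly through its seed, the bases 2 to 8, and represses them. miR-21 is expressed in very many tissues and is known for blocking cell death, also in granulosa and luteal cells. miR-142 marks cells of the blood lineage, miR-223 granulocytes and other myeloid cells, and miR-150 mature lymphocytes. miR-155 and miR-146 are induced by NF-kB signalling in activated leukocytes, where miR-146 represses the adaptors IRAK1 and TRAF6. miR-181a tunes the T cell receptor response, but the miR-181 family is also expressed outside the immune system.

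The 11 tested mature sequences are shown as deposited, 5′ to 3′ with T for U and the seed in capitals, because the seed groups them: miR-146a-5p shares its seed with miR-146b, and miR-181a with miR-181b.
miR-21-5p: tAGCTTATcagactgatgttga
miR-21-3p: cAACAGCAgtcgatgggctgt
miR-142-5p: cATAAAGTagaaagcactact
miR-142-3p: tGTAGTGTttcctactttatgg
miR-146a-5p: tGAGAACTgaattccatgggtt
miR-146b: tGAGAACTgaattccataggc
miR-150: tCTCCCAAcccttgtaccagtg
miR-155-5p: tTAATGCTaattgtgatagggg
miR-181a: aACATTCAacgctgtcggtgagtt
miR-181b: aACATTCAttgctgtcggtgggtt
miR-223: tGTCAGTTtgtcaaatacccc

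Counted from the 5′ end, miR-146a-5p and miR-146b differ by G18A and T21C over their 21 shared positions, and miR-181a and miR-181b differ by A9T, C10T and A21G. In both pairs the base of the first miRNA is written first. How reads that fit more than 1 miRNA were assigned is not given in the sources used here, so that the split within a pair rests on those positions. The seed of the miR-181 pair is also that of miR-181c and miR-181d-5p, while the seeds of miR-21-5p, both arms of miR-142, miR-150, miR-155-5p and miR-223 occur in no other listed miRNA.

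The mature sequences were placed on the chromosomes of Sscrofa11.1, the build named for these libraries, by exact match. Of the 13, 11 matched 1 place, and miR-181a and miR-181b matched 2 places each. For miR-150 the authors list 2 hairpins, of which 1 was found, and unplaced scaffolds were not searched. miR-21-5p lies at chr12:36065284-36065305 on the plus strand, in the hairpin of MIR21 outside any other annotated gene, and its nearest annotated coding gene, TUBD1, is 14634 nt away. The annotation has no gene under the symbol VMP1, the host gene looked for, so that an overlap with it could not be read. The arms of miR-142 lie in MIR142 on the minus strand of the same chromosome, with miR-142-5p at chr12:34609426-34609446, and the nearest coding gene is TSPOAP1. The places of miR-181a are in MIR181A-2 at chr1:265497258-265497281, within an intron of NR6A1 on the opposite strand, and in MIR181A-1 at chr10:21696711-21696734. The place on chr10 is within an intron of the coding gene LOC110255652 on the same strand. MIR181B-2 starts 1782 nt after MIR181A-2, and MIR181B-1 and MIR181A-1 are 81 nt apart, so that each miR-181a hairpin has a miR-181b hairpin beside it, and reads cannot be split between the 2 places. miR-155-5p lies at chr13:189138832-189138853, miR-146b at chr14:113446874-113446894, miR-146a-5p at chr16:63044307-63044328 and miR-150 at chr6:54580957-54580978, 125 nt from FCGRT. miR-223 matched chrX:52173192-52173212, within an exon of the long non-coding RNA LOC110257651 on the same strand. That RNA was at 0.339, 0.189 and 0.255 FPKM among SLS (ZD2, ZD3, ZD12) and at 0.0391, 0.074 and 0.302 FPKM among LLS (ZD5, ZD7, ZD8), where FPKM scales reads to transcript length and depth.

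The read totals behind RPM were recovered from the smallest RPM above 0 of each small RNA library, taken as 1 read. They lay between 3537619 and 9854086 reads, and 3 reads were between 0.304 and 0.848 RPM. Listed miRNAs made up 97.6% (ZD2) to 98.7% (ZD8) of these totals. Whether the totals hold all reads of a library is not known, and shares of the library are shares of these totals. The LLS ovary ZD8 stood apart in both kinds of library. Its summed level of 6 luteal cell markers was 122.9 FPKM, against 9167 to 12191 FPKM in the other 5 ovaries, and it was the ovary with the lowest level for 141 of the 353 tested miRNAs (39.9%). Among the 11 tested members it was the lowest for 5 and the highest for 1. The differences of the members between the groups are therefore also given without ZD8.

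miR-21-5p ranked first of the 457 miRNAs by its mean level, and its level differed more between ovaries of the same group than between the groups. It stood at 307697, 197650 and 85208 RPM among SLS (ZD2, ZD3, ZD12), and at 251825, 314092 and 33686 RPM among LLS (ZD5, ZD7, ZD8). The highest ovary, ZD7, and the lowest, ZD8, both belonged to LLS, and they differed 9.32-fold. As a share of the library, miR-21-5p took 30.8%, 19.8% and 8.52% of the reads in ZD2, ZD3 and ZD12 and 25.2%, 31.4% and 3.37% in ZD5, ZD7 and ZD8. The counting error of these shares is small beside those gaps, with 95% Wilson intervals of 19.7% to 19.8% in ZD3, the shallowest library, and 3.36% to 3.38% in ZD8 (intervals cover counting error only, and reads without molecular identifiers are not independent molecules). miR-21-5p held rank 1 in ZD2, ZD3, ZD5 and ZD7, rank 2 in ZD12 and rank 7 in ZD8. In ZD12 and ZD8 the first rank went to miR-26a, with 20.7% and 25.3% of the reads, against 7.58% to 10.8% in the other 4 libraries.

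**Figure D1:**
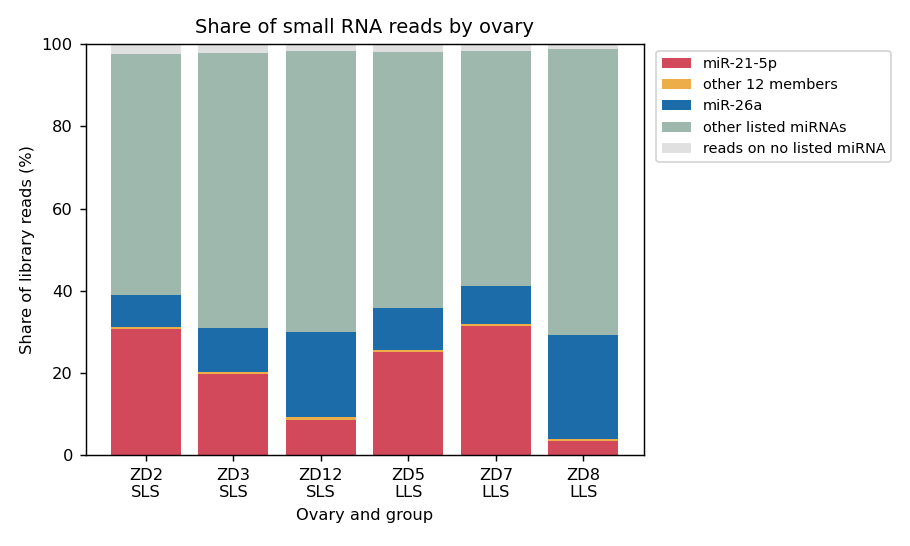
Share of the recovered read total of each small RNA library (%, bars stacked to 100) taken by miR-21-5p, the other 12 members, miR-26a, the other listed miRNAs and reads on no listed miRNA, for 3 SLS and 3 LLS ovaries. miR-21-5p takes between 3.37% (ZD8) and 31.4% (ZD7), and the other 12 members together stay below 1% of every library.

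The mean of miR-21-5p was 196851 ± 111247 RPM among SLS and 199868 ± 147246 RPM among LLS (SD, n = 3 ovaries each), and LLS minus SLS was 0.302 percentage points of the library (exact permutation test, two-sided, p = 0.9, where 3 ovaries against 3 cannot go below 0.1). The mean log2(RPM + 1) of LLS minus that of SLS was -0.32, with a standard error of 0.91 (limma, adjusted p = 0.997), so that the mean share and the mean log2 level differ in sign. The direction followed single ovaries. It was 0.70 without ZD8 (adjusted p = 0.952 by limma) and -0.91 without ZD7 (adjusted p = 0.992 by limma), with adjusted p from 0.944 to 1 over the alternatives tried.

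The other arm of the hairpin, miR-21-3p, had 131, 78.6 and 31.4 RPM in ZD2, ZD3 and ZD12 and 103, 128 and 12.7 RPM in ZD5, ZD7 and ZD8. The ovaries fell in nearly the same order as for miR-21-5p, with ZD8 and then ZD12 the lowest. Within each library there were between 2356 (ZD2) and 2717 (ZD12) reads of the 5p arm for each read of the 3p arm. This ratio covered 0.21 on the log2 scale, while the level of each arm covered 3.22 (5p) and 3.27 (3p) on the log2(RPM + 1) scale. The log2 ratio was 11.3 ± 0.103 in SLS and 11.3 ± 0.0693 in LLS (SD, n = 3 ovaries each), and the groups overlapped (exact permutation test, two-sided, p = 1).

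**Figure D2:**
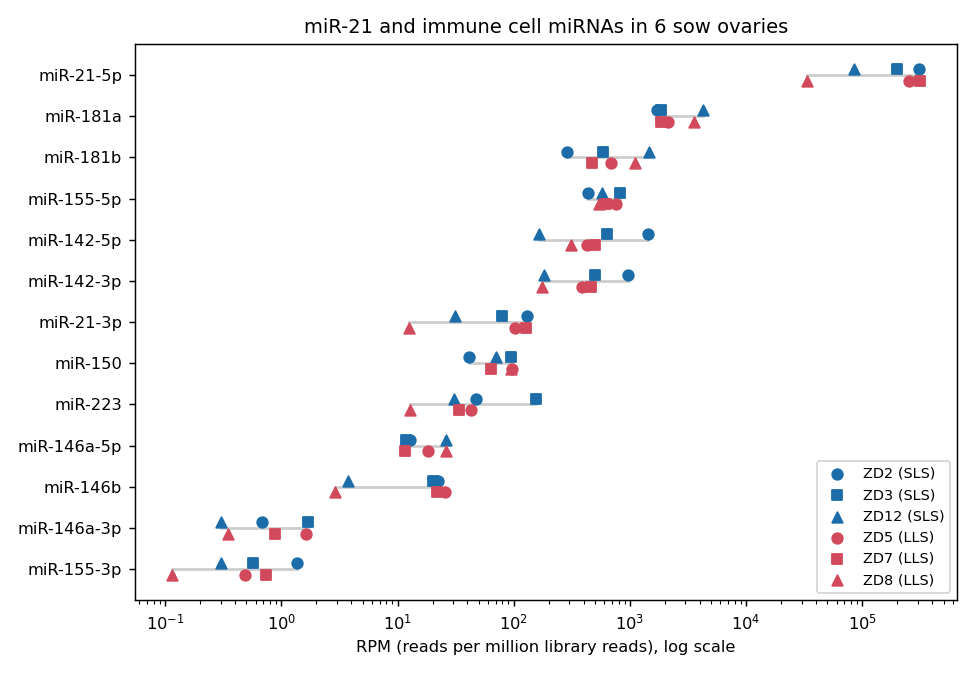
Level of the 13 members in RPM (log axis) in each ovary, SLS above and LLS below the line of each miRNA, which runs from the lowest to the highest ovary. The mean levels run from 0.596 RPM (miR-155-3p) to 198360 RPM (miR-21-5p), and the colours of the groups overlap in every member.

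The 2 arms of miR-142, the miRNA of blood lineage cells, were highest in the SLS ovary ZD2. miR-142-5p had 1434, 632 and 164.5 RPM in ZD2, ZD3 and ZD12 and 430.4, 498 and 309 RPM in ZD5, ZD7 and ZD8. miR-142-3p had 968, 497 and 181.1 RPM in the SLS ovaries and 387, 462 and 176 RPM in the LLS ovaries. For both arms the SLS values enclosed those of ZD5 and ZD7, with ZD12 well below ZD2 in the same group. The mean of miR-142-5p reached 744 ± 642 RPM among SLS and 412 ± 95.6 RPM among LLS (SD, n = 3 ovaries each), with a log2 difference of -0.39 (standard error 0.72, adjusted p = 0.997 by limma). Without ZD2 the difference was 0.33 (adjusted p = 0.999 by limma), and without ZD12 it was -1.23 (adjusted p = 0.994 by limma), with adjusted p from 0.944 to 1 over the alternatives tried. Among these alternatives it was -0.95 by edgeR and -0.86 by DESeq2. The difference of miR-142-3p was -0.49 by limma, -0.82 by edgeR and -0.73 by DESeq2. The ratio of the 5p to the 3p arm was 1.48, 1.27 and 0.908 in ZD2, ZD3 and ZD12 and 1.11, 1.08 and 1.76 in ZD5, ZD7 and ZD8, so that the more abundant arm was 3p in ZD12 and 5p in the other 5 ovaries (exact permutation test between groups, two-sided, p = 0.7).

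miR-223, the myeloid miRNA, had the largest difference between the groups among the tested members, without passing the test. It had 47.8, 156 and 30.3 RPM among SLS (ZD2, ZD3, ZD12) and 43.3, 33.8 and 12.9 RPM among LLS (ZD5, ZD7, ZD8). ZD3 lay far above the other ovaries and ZD8 below them, while ZD12 of SLS was below ZD5 and ZD7 of LLS. The means were 78.0 ± 68.1 RPM in SLS and 30.0 ± 15.6 RPM in LLS (SD, n = 3 ovaries each). The log2 difference was -1.16 (standard error 0.72, unadjusted p = 0.144 and adjusted p = 0.997 by limma), the rank 8 by p among the 353 tested miRNAs (exact permutation test, two-sided, p = 0.4). It stayed negative with each ovary left out, from -1.66 without ZD12 (adjusted p = 0.994 by limma) to -0.49 without ZD3 (adjusted p = 0.999 by limma), and was -0.66 without ZD8 (adjusted p = 0.952 by limma). Over the alternatives tried, its adjusted p ran from 0.944 to 1.

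miR-155-5p, the miRNA of activated lymphocytes and macrophages, was the steadiest tested member. It had 438, 829 and 577 RPM in the SLS ovaries and 754, 623 and 544 RPM in the LLS ovaries, with ZD2 the lowest and ZD3 the highest, 1.89-fold apart. The means were 615 ± 198 RPM in SLS and 640 ± 106 RPM in LLS (SD, n = 3 ovaries each), a log2 difference of 0.10 (standard error 0.38, adjusted p = 0.997 by limma). Its 3p arm rested on 1 to 8 reads per library and stayed between 0.115 and 1.37 RPM, under the filter for testing.

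miR-150, the miRNA of mature lymphocytes, had 41.6, 95.5 and 70.5 RPM in ZD2, ZD3 and ZD12 and 97.2, 64.2 and 94.1 RPM in ZD5, ZD7 and ZD8. ZD2 was the lowest, as for miR-155-5p, and the other 5 ovaries lay within 64.2 to 97.2 RPM. By limma, miR-150 differed by 0.35 on the log2 scale in LLS relative to SLS (standard error 0.47, adjusted p = 0.997), between 0.03 and 0.62 with each ovary left out, where the lowest was without ZD2.

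The 2 miRNAs of the miR-146 seed, both induced by NF-kB, kept nearly the same ratio in 4 ovaries and stood apart in ZD12 and ZD8. miR-146a-5p had 12.8, 11.9 and 25.9 RPM in ZD2, ZD3 and ZD12 and 18.2, 11.5 and 26.4 RPM in ZD5, ZD7 and ZD8, with ZD8 and ZD12 the highest. miR-146b had 22.3, 20.1 and 3.75 RPM in the SLS ovaries and 25.8, 22.0 and 2.88 RPM in the LLS ovaries, with ZD8 and ZD12 the lowest. The ratio of miR-146a-5p to miR-146b was therefore 6.89 in ZD12 and 9.16 in ZD8, and between 0.523 and 0.704 in the other 4 ovaries. The sum of both, the level of this seed, varied less, with 35.1, 31.9 and 29.6 RPM in ZD2, ZD3 and ZD12 and 44.0, 33.5 and 29.2 RPM in ZD5, ZD7 and ZD8. Each group held 1 ovary of the high ratio, and the groups overlapped (log2 ratio 0.41 ± 2.06 in SLS and 0.59 ± 2.27 in LLS, SD, n = 3 ovaries each, exact permutation test, two-sided, p = 0.7). The passenger arm miR-146a-3p stayed between 0.304 and 1.70 RPM and was not tested.

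**Figure D3:**
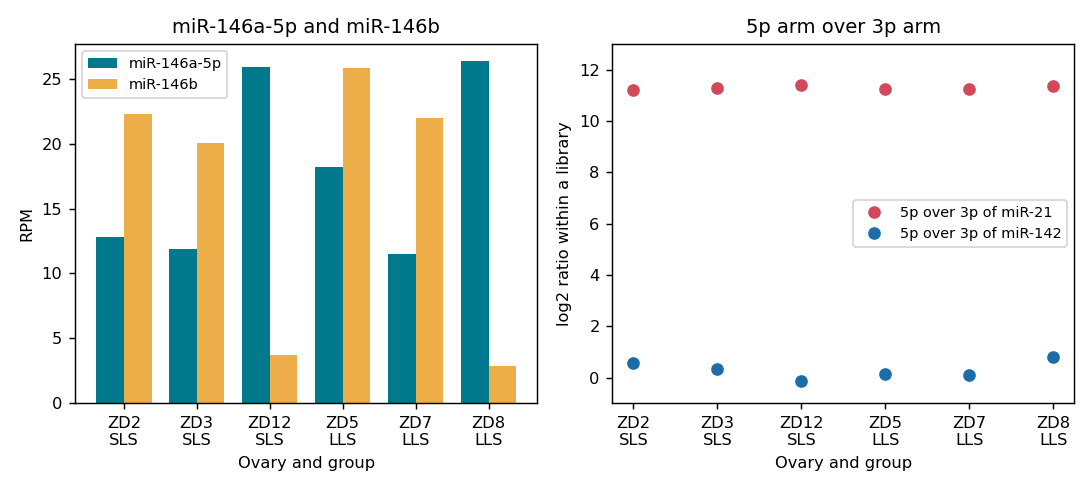
Left, RPM of miR-146a-5p and miR-146b, which share a seed, in each ovary (bars from 0). Right, log2 ratio of the 5p to the 3p arm within each library for miR-21 (11.2 to 11.4) and miR-142 (-0.14 to 0.82). miR-146a-5p exceeds miR-146b in ZD12, of SLS, and in ZD8, of LLS.

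miR-181a and miR-181b, from paired hairpins, were highest in the ovaries in which miR-21-5p was lowest. miR-181a had 1727, 1868 and 4237 RPM in ZD2, ZD3 and ZD12 and 2122, 1834 and 3592 RPM in ZD5, ZD7 and ZD8. miR-181b had 289, 585 and 1471 RPM in the SLS ovaries and 693, 473 and 1111 RPM in the LLS ovaries. ZD12 and then ZD8 led both, and ZD2 was the lowest in both. The ratio of miR-181a to miR-181b was 5.97 in ZD2 and between 2.88 and 3.88 in the other 5 ovaries (exact permutation test between groups, two-sided, p = 0.9). Between LLS and SLS the log2 difference was 0.01 (standard error 0.47) for miR-181a and 0.18 (standard error 0.62) for miR-181b (limma, adjusted p = 0.997 for both). The other miRNAs of the same seed were also highest in ZD12 and ZD8, with 132 and 138 RPM of miR-181c against 44.3 to 59.3 RPM in the other 4 ovaries, and with 380 and 301 RPM of miR-181d-5p against 120 to 210 RPM. miR-181d-5p differs from miR-181b only by C12T, so that the split of reads between them rests on that position. RPM is relative to a total that includes miR-21-5p. Scaled in the same way to the reads outside miR-21-5p, the level of miR-181a was 4632 in ZD12, 3717 in ZD8 and 2328 to 2836 in the other 4 ovaries, and the part of the scaling in its pattern was not tested.

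**Figure D4:**
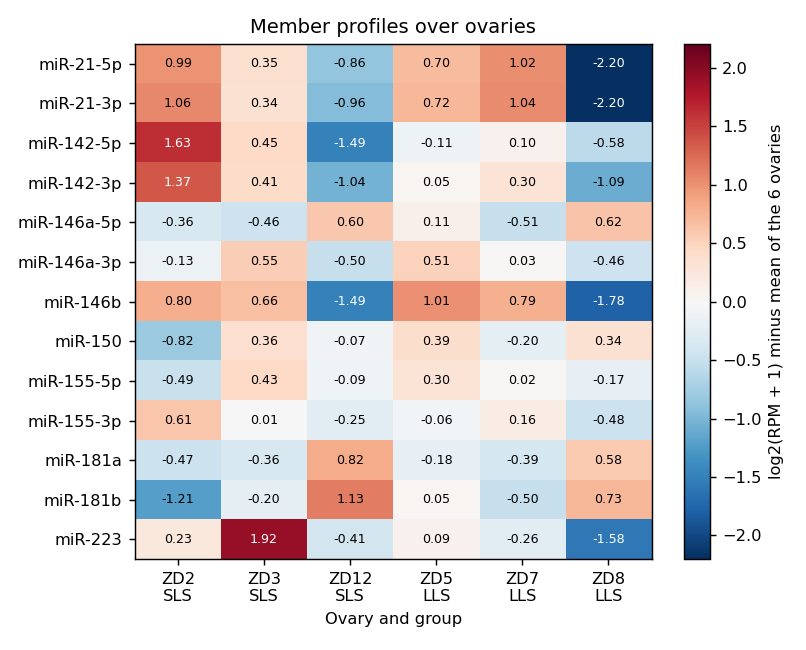
log2(RPM + 1) of each member in each ovary minus the member's mean over the 6 ovaries (colour and printed value). miR-21-5p, miR-21-3p and miR-146b are at -0.86 to -1.49 in ZD12 and -1.78 to -2.20 in ZD8, where miR-181a, miR-181b and miR-146a-5p are above 0, and the 2 libraries belong to different groups.

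By mean level over the 6 ovaries the order was miR-21-5p (198360 RPM), miR-181a (2563), miR-181b (770), miR-155-5p (628), miR-142-5p (578), miR-142-3p (445.2), miR-21-3p (80.7), miR-150 (77.2), miR-223 (54.0), miR-146a-5p (17.8), miR-146b (16.1), miR-146a-3p (0.923) and miR-155-3p (0.596). Only part of this order held ovary by ovary. miR-21-5p was above miR-181a, miR-181a above miR-181b, miR-142-3p above miR-21-3p and miR-146b above miR-146a-3p in 6 of 6 ovaries. miR-155-5p was above miR-142-5p, miR-142-5p above miR-142-3p and miR-223 above miR-146a-5p in 5 of 6 ovaries, and the remaining neighbours kept the order in 2 to 4. For the neighbours miR-181b and miR-155-5p the mean log2 difference was smaller than its SD between ovaries (0.13 ± 0.84, SD, n = 6). The same held for miR-155-5p and miR-142-5p (0.41 ± 1.16), miR-142-5p and miR-142-3p (0.31 ± 0.34), miR-21-3p and miR-150 (-0.25 ± 1.58), miR-150 and miR-223 (0.85 ± 1.22), miR-223 and miR-146a-5p (1.23 ± 1.55), miR-146a-5p and miR-146b (0.42 ± 1.74), and miR-146a-3p and miR-155-3p (0.25 ± 0.50). This SD is a spread of single ovaries, and the means were not tested. Without miR-21-5p, the other 12 members summed to 0.511%, 0.478% and 0.679% of the reads in ZD2, ZD3 and ZD12 and 0.468%, 0.415% and 0.588% in ZD5, ZD7 and ZD8.

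No tested member was called between LLS and SLS (0 of 11, adjusted p under 0.05 and absolute log2 fold change over 1 by limma), where 0 of the 353 tested miRNAs were called (0%). At an unadjusted p under 0.05 there were also 0 members, and 0 of the 353. edgeR's quasi-likelihood test and DESeq2, run on the reads recovered from RPM, called 0 of the 353 as well, with 4 and 7 at an unadjusted p under 0.05, and miR-223 was among both. The groups overlapped in all 13 members, where 2.83% of the tested miRNAs had groups that did not overlap (1.13% higher and 1.7% lower in LLS). They overlapped in all 13 without ZD8 too, where 20.2% of the 351 miRNAs tested then did not. Over the 11 members, the median log2 difference was 0.01 and 6 were positive, beside a median of -0.01 over the 353. The median SD between ovaries of 1 group was 1.03 in SLS and 0.62 in LLS for the members, beside 0.49 and 0.58 for all tested miRNAs. The range from the lowest to the highest ovary was 0.92 for miR-155-5p and 3.50 for miR-223, beside a median of 1.44 over all tested miRNAs.

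Leaving out ZD8 turned the sign of several members and of 2 ratios. The log2 difference of LLS from SLS was then 0.70 for miR-21-5p and 0.73 for miR-21-3p, in place of -0.32 and -0.30. It was -0.28 for miR-181a, -0.14 for miR-181b and -0.12 for miR-146a-5p, in place of 0.01, 0.18 and 0.15. Without a change of sign it was -0.20 for miR-142-5p, -0.07 for miR-142-3p and 0.90 for miR-146b, in place of -0.39, -0.49 and 0.01. It was 0.27 for miR-150, 0.21 for miR-155-5p and -0.66 for miR-223, in place of 0.35, 0.10 and -1.16. The adjusted p of the 11 values without ZD8 ran from 0.952 to 0.990 by limma, so that no member passed the test. The difference in log2 ratio turned from 0.17 to -1.13 for miR-146a-5p to miR-146b and from 0.10 to -0.13 for the arms of miR-142 (exact permutation test, two-sided, p = 0.8 and p = 0.7).

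**Figure D5:**
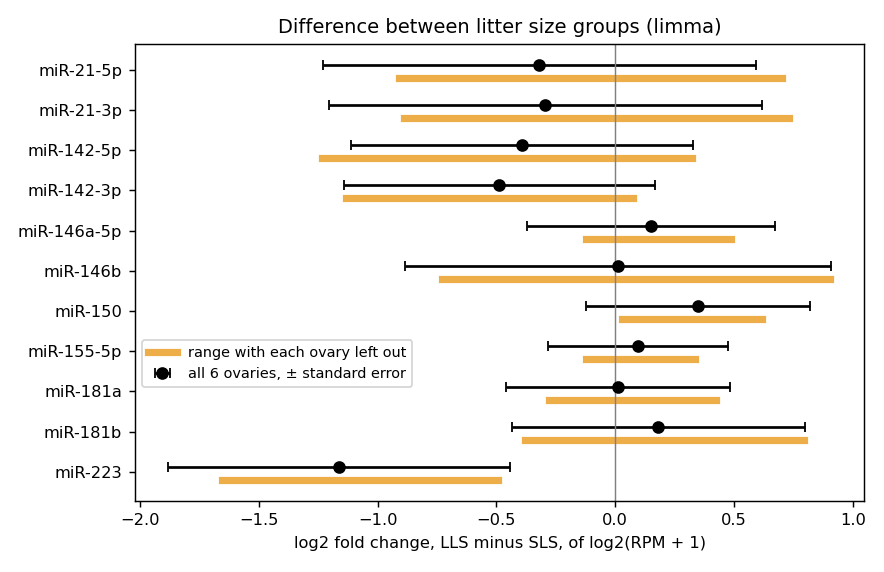
Difference of LLS from SLS in log2(RPM + 1) for the 11 tested members, with the limma standard error (black, n = 3 against 3 ovaries) and the range of the estimate with each ovary left out in turn (orange). Only miR-150 and miR-223 keep 1 sign over that range, with 0.35 and -1.16 from all 6 ovaries.

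For each member with a mean of at least 100 RPM, the non-member with the most similar profile was sought among 342 tested miRNAs, by the mean absolute difference of centred log2(RPM + 1) over the 6 ovaries. It was miR-425-5p for miR-21-5p (0.17), miR-363 for miR-142-3p (0.17), miR-219b-3p for miR-142-5p (0.34), miR-9-2 for miR-155-5p (0.11), miR-29a-3p for miR-181a (0.14) and miR-125a for miR-181b (0.13). Among all candidates the median distance was between 0.44 for miR-155-5p and 0.90 for miR-21-5p. The mean of 100 RPM was not required of the non-members. miR-219b-3p had only 0.710 RPM (ZD12) to 4.62 RPM (ZD2), where the added 1 narrows differences, and miR-9-2 had 15.7 RPM (ZD2) to 27.4 RPM (ZD3). miR-425-5p had 784, 550.4 and 265 RPM in ZD2, ZD3 and ZD12 and 830.1, 836 and 126 RPM in ZD5, ZD7 and ZD8. It was chosen for its similarity to miR-21-5p, so that its lowest levels in ZD8 and ZD12 are no separate observation.

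Marker genes of immune cells were read in the gene libraries of the same ovaries. Of 7 general leukocyte markers 6 were listed (CYBB was not), and these stayed between 2.01 and 8.78 FPKM except LAPTM5, at 29.7 to 57.2 FPKM. Their summed level was 89.6, 65.0 and 62.1 FPKM in ZD2, ZD3 and ZD12 and 48.7, 64.0 and 60.6 FPKM in ZD5, ZD7 and ZD8, led by LAPTM5, a lysosomal protein of blood cells, and LCP1, an actin-bundling protein. ZD2 was the highest, as it was for both arms of miR-142, and each of the 6 listed markers was highest or second highest there, with LAPTM5 at 57.2 FPKM. In ZD8, the lowest ovary for miR-142-3p, LAPTM5 was lowest, at 29.7 FPKM, but the other 5 listed markers were highest or second highest, where the leukocyte phosphatase PTPRC reached 4.68 FPKM (2.01 to 3.86 FPKM elsewhere) and LCP1 8.78 FPKM (4.11 to 7.38 FPKM elsewhere). The 9 macrophage and monocyte markers summed to 144, 67.8 and 130 FPKM in the SLS ovaries and 101, 116 and 129 FPKM in the LLS ovaries, led by the complement genes C1QC and C1QB. The 7 T cell markers summed to 4.14 to 6.12 FPKM in SLS and 3.60 to 16.3 FPKM in LLS, with ZD8 the highest, led by the adhesion receptor CD2 and the T cell receptor subunit CD3D. The 5 B cell markers summed to at most 1.39 FPKM in any ovary, led by the B cell receptor subunits CD79A and CD79B, with MS4A1, the CD20 antigen, at 0 in ZD7. Of the 8 neutrophil and platelet markers 7 were listed (PF4 was not), and they summed to 2.65 to 3.88 FPKM in SLS and 1.57 to 7.72 FPKM in LLS, led by the calprotectin subunit S100A8 and the platelet integrin ITGA2B. The neutrophil receptor CXCR2 was listed at 0 in ZD8, S100A8 at 0 in ZD2, and the platelet chemokine PPBP at 0 in ZD2, ZD3, ZD7 and ZD8. In ZD3, the highest ovary for miR-223, the neutrophil and platelet sum was 2.65 FPKM, within the range of the other ovaries. Of the 34 listed immune cell markers 18 were tested, and the groups overlapped in all 18, where 5.12% of the 12260 tested genes had groups that did not overlap. Among the 16 below the filter they did not overlap for 4, where 4.39% of the 11304 genes that were below the filter but above 0 in some ovary had such groups. The 4 were the growth factor receptor CSF3R and the calprotectin subunit S100A9, lower in LLS, and the T cell coreceptor CD4 and CD79B, higher in LLS. The part of these cells in the miRNA levels was not tested.

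Marker genes of other cell types, mast cells included, were read in the same way. The ovaries ZD8 and ZD12, lowest for miR-21-5p and highest for miR-181a, had the highest summed levels of the 2 theca cell markers (415 and 74.4 FPKM, against 9.31 to 18.9 FPKM in the other 4) and of the 4 oocyte markers (99.0 and 19.7 FPKM, against 6.17 to 10.6 FPKM). The theca markers were the peptide hormone INSL3 and the androgen enzyme CYP17A1, and the oocyte sum was led by the growth factor GDF9 and the zona pellucida protein ZP3. The luteal sum was far lower only in ZD8, with 9167 FPKM in ZD12 and led by STAR and HSD3B1, of steroid synthesis, and the lowest sum of the 5 endothelial markers was also in ZD8 (115 FPKM, against 244 to 371 FPKM), led by VWF, the clotting factor carrier, and PECAM1. TEK, an angiopoietin receptor of the same list, did not follow that sum, with 8.90 FPKM in ZD8, 9.09 FPKM in ZD5 and its lowest level in ZD12. ZD2, the highest for miR-142, had the highest sums of the 6 fibroblast and stroma markers (9586 FPKM, against 3373 to 4772 FPKM) and of the 4 smooth muscle markers (1771 FPKM, against 310 to 1087 FPKM). In ZD2 these sums are mostly the collagens, led by COL3A1 and COL1A1, and the contractile genes ACTA2 and TAGLN. Other markers of the same lists were highest in ZD8, with DCN at 1854 FPKM and 859 FPKM in ZD2, PDGFRA at 219.7 FPKM and 123 FPKM in ZD2, MYH11 at 190.3 FPKM and 28.4 FPKM in ZD2, and DES at 27.1 FPKM and 25.1 FPKM in ZD2, while LUM was lowest in ZD2, at 2.63 FPKM. Mast cell markers were at 29.2 to 180 FPKM in sum, nearly all from KIT, which the ovary also expresses, followed by the IgE receptor subunit MS4A2, with the mast cell protease CPA3 at 0 in 5 ovaries. The granulosa markers summed to 384 to 768 FPKM in SLS and 127 to 296 FPKM in LLS, led by INHA, the inhibin alpha subunit, and the ovarian transcription factor FOXL2. INHA was at 66.4 of the 127.0 FPKM in ZD8 and took a larger part of the sum in the other 5 ovaries. Of the 4 tested granulosa markers 2 had a positive and 2 a negative difference, with a median of 0.34, and FSHR, AMH and FOXL2 were highest in ZD8 (10.8, 12.01 and 37.8 FPKM). Of the 31 tested markers of these other cell types, 3 had groups that did not overlap, where 5.12% of all tested genes had such groups (3.17% lower in LLS). They were INHA, LHCGR, the luteinising hormone receptor, and PECAM1, the endothelial adhesion molecule, all lower in LLS (log2 difference -1.86, -1.28 and -0.96, adjusted p = 0.999 for each by limma). The part of these cell types in the miRNA levels was not tested.

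Textbook targets of the members were compared between the groups in the gene table, where limma called 0 of 12260 tested genes (0%), 216 had an unadjusted p under 0.05 (1.76%) and 5.12% had groups that did not overlap (1.95% higher and 3.17% lower in LLS). Without ZD8 limma called 20 genes, 14 higher and 6 lower in LLS. Of the 23 target genes, 20 were tested, 0 were called and 0 had an unadjusted p under 0.05. Their median log2 difference of LLS from SLS in log2(FPKM + 1) was 0.03, beside 0.02 over all tested genes, with 11 positive and 9 negative. The 8 targets of miR-21 were led by TIMP3, an inhibitor of matrix metalloproteases, and TPM1, a tropomyosin. TIMP3 had 105, 116 and 91.9 FPKM in ZD2, ZD3 and ZD12 and 93.5, 82.0 and 123 FPKM in ZD5, ZD7 and ZD8, highest in ZD8 where miR-21-5p was lowest, but second lowest in ZD12. PDCD4, an inhibitor of translation, had 15.9, 38.2 and 30.3 FPKM in the SLS ovaries and 30.4, 14.7 and 42.3 FPKM in the LLS ovaries, with the lowest levels in ZD7 and ZD2, the ovaries with most miR-21-5p. SPRY1, an inhibitor of receptor tyrosine kinase signalling, ran the other way, with 6.44 FPKM in ZD12 and 7.71 FPKM in ZD8 against 12.3 to 15.5 FPKM in the other 4 ovaries. These are levels in whole ovaries and were not tested against the miRNA.

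Among targets of the immune members, only STMN1, a tubulin-binding protein targeted by miR-223, had groups that did not overlap, with 47.9, 72.1 and 72.7 FPKM in SLS and 38.9, 44.3 and 39.3 FPKM in LLS. It was 1 of the 12 tested targets of members other than miR-21, where 5.12% of all tested genes had such groups, with a log2 difference of -0.62 (adjusted p = 0.999 by limma), with the same sign as miR-223. FOXO1, a transcription factor and the other of the 2 highest targets of miR-223, had 20.1 to 32.9 FPKM in SLS and 15.6 to 50.1 FPKM in LLS. The highest targets of the other members were IL6ST, the shared receptor chain of the interleukin-6 family, and the GTPase RAC1 for miR-142, the phosphatase DUSP6 and the survival factor BCL2 for miR-181, BACH1 and the myeloid factor SPI1 for miR-155. BCL2 reached 28.7 FPKM in ZD8, while the other 5 ovaries had 2.52 to 6.40 FPKM. MYB, the target of miR-150, stayed between 0.0840 and 0.391 FPKM and was not tested. Of 20 genes of NF-kB signalling, among them IRAK1 and TRAF6, 18 were tested and 0 were called, with 8 positive and 10 negative differences and a median of -0.04. NFKBIA, the inhibitor that NF-kB itself induces, and RELA, one of its subunits, were the highest, with 97.3 and 51.2 FPKM in ZD8 against 49.1 to 74.5 and 18.9 to 33.3 FPKM in the others. TNFAIP3, a deubiquitinase that shuts the pathway off, was the member without overlap, at 1.83 to 2.43 FPKM in SLS and 2.50 to 3.16 FPKM in LLS (log2 difference 0.23, adjusted p = 0.999 by limma).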

How the data were processed

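Small RNA and ribosome-depleted RNA libraries of 6 left ovaries were analysed, 1 of each per ovary, grouped as SLS and LLS by the labels, and the columns of both tables carry the names of the ovaries. Per the labels, small RNA reads were processed with BWA and gene reads with HISAT2 on Sscrofa11.1, while versions, the miRNA annotation and the counters are not given in the sources used here. The authors deposited gene levels as FPKM and miRNA levels as RPM, a value they call TPM. Of the 2618 RPM values above 0, all (100%) were whole numbers of reads within 0.001 of a read.

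From these values, in R 4.3.3, limma 3.58.1 (trend) was fitted to log2(value + 1), keeping miRNAs that reached 1 RPM, and genes that reached 1 FPKM, in 3 or more libraries, with Benjamini-Hochberg adjustment over all tested features. edgeR 4.0.16 (quasi-likelihood) and DESeq2 1.42.0 were run on the recovered reads as alternatives. The study names edgeR for miRNAs and its thresholds (adjusted p under 0.05, absolute log2 fold change over 1), which were kept. It reports miRNAs that differed between the groups at these thresholds, and measured some of them by qPCR in more ovaries. No miRNA was called here, and the cause of this difference was not tested. Shares and ratios were compared by an exact permutation test. All members are named, with the 2 highest and the non-overlapping genes of each fixed list, and PDCD4, SPRY1, BCL2 and the markers named for a level of 0 or as exceptions to a sum were singled out after their values were seen. A gene of the target lists is counted but not reported here by name. Members, gene lists and tests were chosen with earlier results of these data known.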

Additional observations from a re-analysis of the deposited data

How the results depend on the processing

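The alternatives were a pseudocount of 0.5 RPM (0.1 FPKM for genes), no filter, median centring, limma's array weights, edgeR, DESeq2, other denominators of the shares and leaving out each ovary, with RPM of the reads outside miR-21-5p added after seeing the data. The count of members called and that of miRNAs called stayed 0 in all of them, where an unadjusted p under 0.05 was reached by 0 to 11 miRNAs. The count of genes called was 0, and 0 to 20 with each ovary left out, where only the fit without ZD8 called any. With array weights the log2 difference turned to 0.33 for miR-21-5p, 0.36 for miR-21-3p and -0.0083 for miR-155-5p, and by edgeR to -0.0371 for miR-146b and -0.011 for miR-181a; the cause was not tested. The differences in share, 0.236 percentage points for all members and 0.302 for miR-21-5p, turned to -1.09 and -1.01 as shares of the listed miRNAs without the 10 most abundant non-members.

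With each ovary left out, the differences ran from -5.44 to 8.50 percentage points for the summed share and from -5.41 to 8.61 for miR-21-5p. On the log2 scale they ran from -0.91 to 0.70 for miR-21-5p, -0.89 to 0.73 for miR-21-3p, -1.23 to 0.33 for miR-142-5p, -1.13 to 0.0732 for miR-142-3p, -0.12 to 0.49 for miR-146a-5p, -0.73 to 0.90 for miR-146b, -0.12 to 0.34 for miR-155-5p, -0.28 to 0.42 for miR-181a, -0.38 to 0.79 for miR-181b, 0.03 to 0.62 for miR-150 and -1.66 to -0.49 for miR-223. For the log2 ratios they ran from -0.0546 to 0.0484 for the arms of miR-21, -0.13 to 0.25 for those of miR-142, -0.37 to 0.15 for miR-181a to miR-181b and -1.13 to 1.36 for miR-146a-5p to miR-146b. No paired analysis was possible because the ovaries of the groups come from different sows and share no number. Values of miR-146a-3p and miR-155-3p rest on few reads.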

Other observations

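Ratios between members, chosen after the values were seen, had wider ranges than the arm ratios. The ratio of miR-21-5p to miR-181a within a library was 178, 106 and 20.1 in ZD2, ZD3 and ZD12 and 119, 171 and 9.38 in ZD5, ZD7 and ZD8, so that each group held 1 ovary far below its others. The ratio of miR-142-5p to miR-155-5p was 3.27 in ZD2 and between 0.285 and 0.799 in the other 5 ovaries. Outside the miR-21-5p reads, the highest ovary exceeded the lowest 16.6-fold for miR-155-3p, which rests on 1 to 8 reads, 14.6-fold for miR-223, 14.4-fold for miR-21-3p, 11.6-fold for miR-146b and 11.5-fold for miR-142-5p, and least, 1.84-fold, for miR-155-5p. The seed of miR-146a-3p occurs also in miR-9843-3p, a miRNA outside the families described here, and the 2 summed to 14.8 RPM in ZD8 and to between 25.6 and 70.1 RPM in the other 5 ovaries.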
